A study of Mus musculus with 8 samples.

Results

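The 34 mouse genes described here encode the vacuolar proton pump and proteins that mark intercalated cells, and they were read in H3K27ac maps of a collecting duct cell line. A fixed list chose them, made of 24 genes for subunits and accessory proteins of the pump (the V-ATPase) and 10 intercalated cell markers, out of 21887 protein-coding genes of the RefSeq table (GRCm38.p6, the mm10 build). The rule itself uses no measured value, though the members and lists were chosen with earlier results of these data known. H3K27ac, histone H3 acetylated at lysine 27, is a mark of active promoters and enhancers and was mapped by chromatin immunoprecipitation and sequencing. The cells were mpkCCD, clone 11, a single clone of mouse cortical collecting duct cells used between passages 6 and 10. Confluent monolayers on permeable supports were kept for 24 h in medium free of serum and hormones. They then received 0.1 nM dDAVP, a vasopressin analogue selective for the V2 receptor, or its vehicle, for a further 24 h. Each treatment had 1 immunoprecipitated and 1 input library in each of 2 experiments, which gave 4 peak lists. The labels do not say that the experiments were separate cultures, so the spread between them may be technical.

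The V-ATPase acidifies lysosomes and other compartments in every cell. Its V1 part (subunits A to H) hydrolyses ATP, and its V0 part (subunits a, c, c'', d and e) carries protons across the membrane. Several subunits have a second gene whose product is found in few cell types: in the kidney, intercalated cells use a4, d2, B1, C2 and G3 in place of or beside a1, d1, B2, C1 and G1, and place the pump in the plasma membrane to secrete acid or base. Principal cells, their neighbours in the collecting duct, respond to vasopressin with the water channel aquaporin 2. The comparison of isoforms asks which of these genes carry the mark in this cell line, and the comparison of treatments asks whether dDAVP went with more or less of it.

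The lists differed in length between experiments and between treatments, so the main counts below stand beside the share over all genes. Between 20124 and 39745 peaks covered 33.5 to 104 Mb, from 27923780 to 32705755 kept tags. The dDAVP list covered 0.951 times the bases of the vehicle list in experiment 1 and 0.590 times in experiment 2. Over the 12558 genes covered in all 4 lists, the median ratio of dDAVP to vehicle was 0.987 and 0.714. Of 10 principal cell markers 7 had a called gene end in all 4 lists, with Aqp2 (aquaporin 2) among them. Of 7 markers of the proximal tubule, thick limb and distal convoluted tubule 1 had, which was Lrp2. Over all protein-coding genes the share was 45.2%.

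The widely expressed genes of the pump carried the mark in every list, and the intercalated cell isoforms were split. A gene end counted as called where a peak lay within 1 kb of either end of the gene, and all 16 widely expressed subunit and accessory genes were called in all 4 lists, against 45.2% of all protein-coding genes. Of the 5 intercalated cell isoforms 2 were called in all 4 lists, the a4 gene Atp6v0a4 and the B1 gene Atp6v1b1, and 3 in no list, which were Atp6v0d2 (d2), Atp6v1c2 (C2) and Atp6v1g3 (G3). Of 3 isoforms found mainly in other tissues, Atp6v1g2 (G2) was called in all 4 lists, Atp6v0e2 (e2) in experiment 1 alone and Atp6v1e2 (E2) in no list. Of the 10 markers 3 were called in all 4 lists, 4 in some and 3 in none. In total 22 of 34 genes were called in all 4 lists and 7 in none, where 44.9% of all genes were in none. With lists shortened to equal covered bases, the counts called in all 4 lists were 10 of 16 widely expressed genes, 1 of 5 isoforms and 0 of 10 markers, against 28.0% of all genes. A restriction added after seeing the data counted only gene ends with no other coding gene end within 2000 bp. The counts called in all 4 lists were then 9 of 12, 1 of 4 and 2 of 10. The share over all genes was not computed under this restriction. A further 4 genes, Atp6v0e2, Dmrt2, Rhbg and Insrr, were called in both lists of experiment 1 and neither of experiment 2, a pattern of 2.69% of all genes. Peaks covered some of the gene span plus 10 kb each side, the window used for coverage, in all 4 lists for 24 genes (57.4% of all) and in no list for 3 (32.8%), which were Atp6v0d2, Atp6v1g3 and Foxi1.

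**Figure D1:**
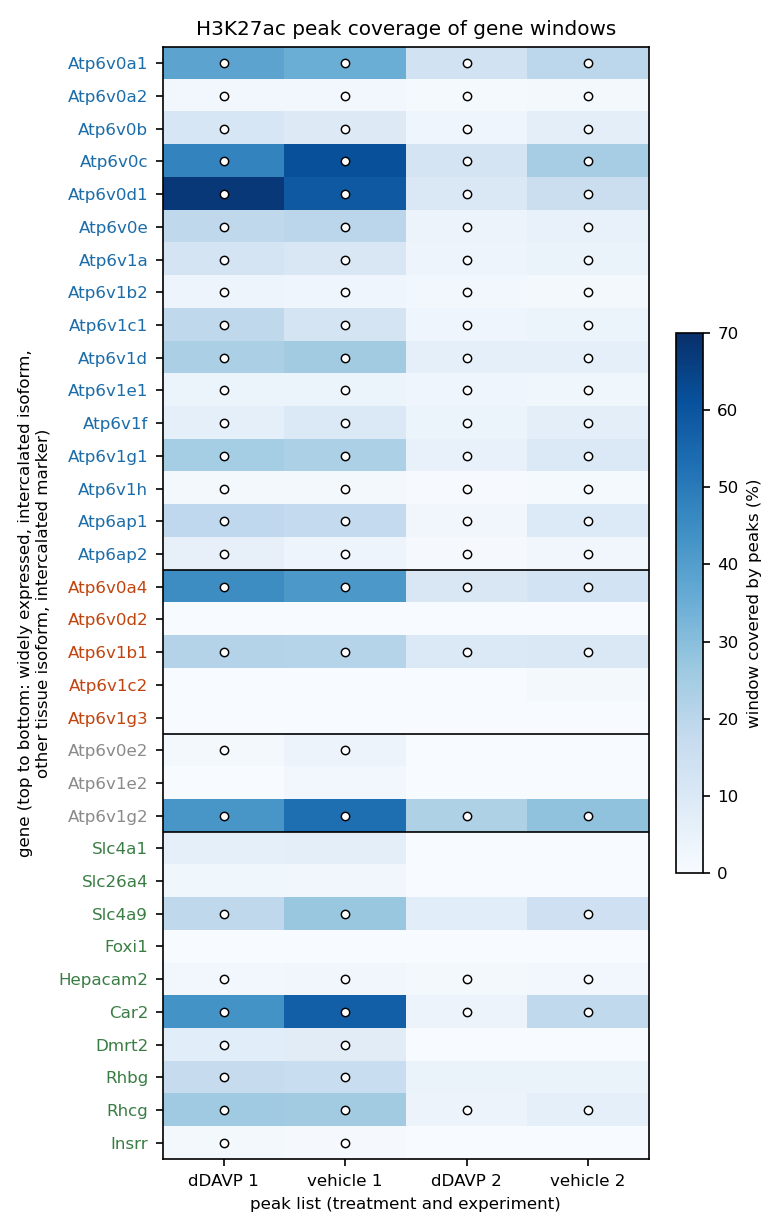
Share of each gene's window (gene span plus 10 kb each side) covered by H3K27ac peaks, in percent, for the 34 genes (rows, by class) in the 4 peak lists (columns). White points mark lists in which a gene end was called. The 16 widely expressed genes hold a point in every column, and among the 5 intercalated cell isoforms Atp6v0a4 and Atp6v1b1 do.

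The start of transcription was given by the RefSeq promoter table for 23 of the 34 genes, and a start counted as called where a peak lay within 1 kb of it. Starts were called in all 4 lists for 10 of 11 widely expressed genes, 2 of 4 intercalated cell isoforms, 1 of 3 other tissue isoforms and 1 of 5 markers, against 45.9% of 17492 protein-coding genes with a start in the table. They were called in no list for 6 of 23 genes (45.7% of all), and in both lists of experiment 1 alone for Atp6v0e2 and Dmrt2 (2.06%). The widely expressed gene left out was Atp6ap1, which encodes the accessory protein Ac45. Its start was called in 3 lists and not in dDAVP replicate 2, where its call came from the other end of the gene.

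The DNA before these starts is shown because the isoform genes that were called differ in composition from most called genes. The lines give the 250 bases that end just before the RefSeq start, 5' to 3' on the strand of the gene (GRCm38.p6), with each CpG dinucleotide in capitals. Positions are chr8:105566065-105566314 (- strand) for Atp6v0d1, chr6:83742767-83743016 (+ strand) for Atp6v1b1, chr6:38124587-38124836 (- strand) for Atp6v0a4, chr1:138273488-138273737 (+ strand) for Atp6v1g3, chr7:79617658-79617907 (- strand) for Rhcg and chr11:34208090-34208339 (- strand) for Foxi1. The d1 gene and Rhcg were called in all 4 lists and are rich in CpG. Atp6v1b1 and Atp6v0a4 were called in all 4 lists and are poor in CpG. Atp6v1g3 and Foxi1 were called in none.
Atp6v0d1: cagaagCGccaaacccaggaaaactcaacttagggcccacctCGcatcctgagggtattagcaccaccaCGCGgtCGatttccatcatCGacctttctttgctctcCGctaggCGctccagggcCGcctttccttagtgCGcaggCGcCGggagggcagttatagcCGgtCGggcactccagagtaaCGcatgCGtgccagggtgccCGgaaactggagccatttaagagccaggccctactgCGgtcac
Atp6v1b1: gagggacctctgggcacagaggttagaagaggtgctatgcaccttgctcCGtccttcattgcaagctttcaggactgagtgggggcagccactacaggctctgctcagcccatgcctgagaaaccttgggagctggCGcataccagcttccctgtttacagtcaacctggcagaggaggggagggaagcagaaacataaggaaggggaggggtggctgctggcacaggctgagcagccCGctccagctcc
Atp6v0a4: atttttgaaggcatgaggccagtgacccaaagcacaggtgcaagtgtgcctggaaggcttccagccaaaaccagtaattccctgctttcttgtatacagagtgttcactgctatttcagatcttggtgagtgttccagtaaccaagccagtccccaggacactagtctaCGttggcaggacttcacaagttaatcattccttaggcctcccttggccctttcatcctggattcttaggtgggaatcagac
Atp6v1g3: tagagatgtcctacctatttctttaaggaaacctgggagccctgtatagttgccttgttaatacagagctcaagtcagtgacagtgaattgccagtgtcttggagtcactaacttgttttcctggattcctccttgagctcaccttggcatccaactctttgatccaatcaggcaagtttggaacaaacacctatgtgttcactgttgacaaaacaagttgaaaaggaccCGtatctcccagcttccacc
Rhcg: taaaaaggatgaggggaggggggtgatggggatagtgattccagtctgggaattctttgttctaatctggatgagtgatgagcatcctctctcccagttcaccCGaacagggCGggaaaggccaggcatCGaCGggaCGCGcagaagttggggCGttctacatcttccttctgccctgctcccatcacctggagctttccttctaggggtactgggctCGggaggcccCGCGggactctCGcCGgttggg
Foxi1: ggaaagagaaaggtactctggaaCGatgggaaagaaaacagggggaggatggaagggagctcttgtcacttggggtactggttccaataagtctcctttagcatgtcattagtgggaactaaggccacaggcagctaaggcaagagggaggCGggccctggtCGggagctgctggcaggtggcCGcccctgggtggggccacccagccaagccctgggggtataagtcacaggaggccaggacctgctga

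Atp6v0d1 held 18 CpG and Rhcg 12, Atp6v1b1 held 3, Atp6v0a4 held 1, Atp6v1g3 held 1 and Foxi1 held 4. Over all genes the median was 17 for starts called in all 4 lists and 3 for starts called in none. Only 322 of 8037 starts called in all 4 lists (4.01%) had 3 CpG or fewer, and the starts of both the a4 and the B1 gene are among them. In the other direction, 6.20% of the 5191 starts with 3 CpG or fewer and 75.6% of the 7890 starts with 12 or more were called in all 4 lists. The C2 gene Atp6v1c2 lay on the opposite side, with 15 CpG and a start called in no list. The limits of 3 and 12 were chosen after the values were seen. The 11 widely expressed genes had a median of 15 CpG, from 4 (Atp6v0a1, the a1 gene) to 20 (Atp6ap2, the prorenin receptor gene). The Atp6v0a1 span begins upstream of the start used here, and in experiment 2 the peak near this start ended before it, at position -241 with dDAVP and -248 with vehicle.

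**Figure D2:**
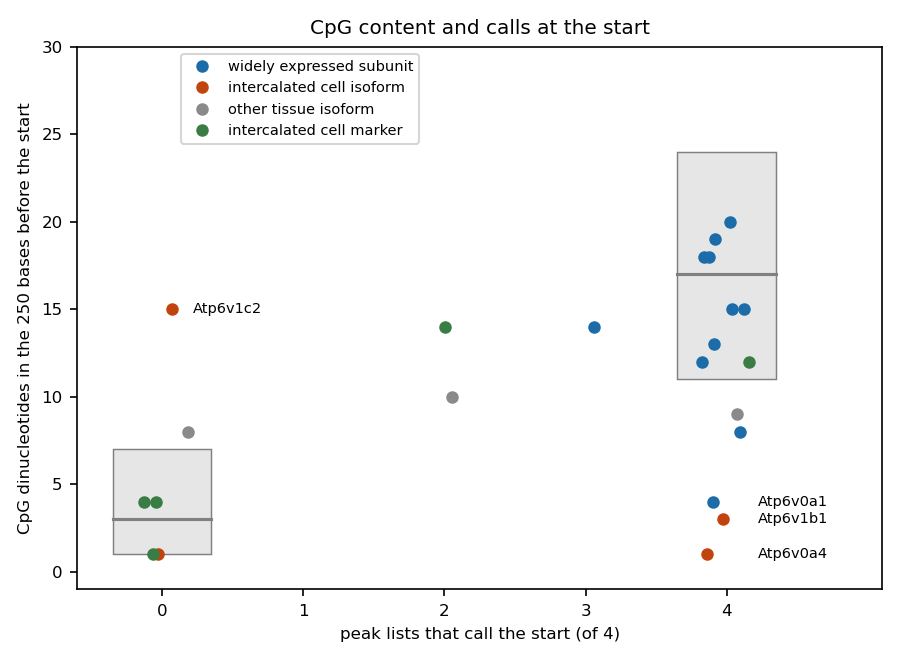
Number of CpG dinucleotides in the 250 bases before the start (vertical) against the number of peak lists that call the start (horizontal, points spread sideways for visibility) for the 23 genes with a start in the table, coloured by class. Grey boxes give the quartiles and median of all protein-coding genes whose starts were called in no list (median 3) or in all 4 (median 17). Atp6v0a4 and Atp6v1b1 lie below the box of called starts, and so do Atp6v0a1 (4 CpG), Atp6v1a (8) and Atp6v1g2 (9). Atp6v1c2 lies above the box of uncalled ones, as does Atp6v1e2 (8).

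A search of the same 250 bases for short motifs, on both strands, gave 2 matches that are shown because factors binding these motifs are known to act on pump genes. The forkhead core GTAAACA, the core that forkhead factors such as FOXI1 bind, had 1 match among the 23 genes, on the opposite strand before Atp6v1b1, at position -98 relative to the start. The CLEAR core TCACGTGA, which MiT/TFE factors bind at lysosomal gene promoters, had 1 match, before the A subunit gene Atp6v1a at -132. Both are shown in 30 bases with the motif in capitals, from chr6:83742908-83742937 (+ strand) and chr16:44139373-44139402 (- strand).
Atp6v1b1: accagcttcccTGTTTACagtcaacctggc
Atp6v1a: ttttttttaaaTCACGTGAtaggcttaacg

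The forkhead core was found before 2.57% of all 17492 starts, 2.00% of those called in all 4 lists and 3.24% of those called in none. The CLEAR core was found before 1.01% of all starts. Its inner E-box CACGTG, found before 6.65% of all starts, also lay before the c'' gene Atp6v0b, so 2 of 11 widely expressed genes held it. The full cAMP response element TGACGTCA lay before none of the 23 genes and before 1.98% of all starts, and TGACG, its first bases, before 5 of 11 widely expressed genes (20.2% of all starts, 30.4% of those called in all 4 lists). The GC box GGGCGG lay before 7 of 11 widely expressed genes (63.6%), beside 42.7% of all starts and 62.9% of those called in all 4 lists, and the TATA box TATAAA before Atp6v1e1, Slc26a4 and Hepacam2 (12.4% of all starts). A match describes letters in this window and is no measured binding.

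All 3 members that encode the a subunit, which anchors the pump in the membrane and directs it to its compartment, were covered in all 4 lists. Atp6v0a4 (chromosome 6, 38048483 to 38124586) had 43150 covered bases in its window with dDAVP against 40091 with vehicle in experiment 1, and 10249 against 12433 in experiment 2. The peak over its start was 23278 bp wide in dDAVP replicate 1, 8736 bp in vehicle replicate 1, and 5526 and 5524 bp with dDAVP and vehicle in experiment 2. The authors' fold over local background of this peak, used here only within a list, was 6.28, 7.13, 3.56 and 3.51 in the same order, at percentiles 86.2, 89.4, 39.8 and 49.4 of all peaks of the list. The start was thus among the stronger peaks in experiment 1 and near or below the middle in experiment 2. An end of D630045J12Rik lay within 1 kb of this peak in all 4 lists, and in dDAVP replicate 1 the peak also reached Tmem213. The authors' -log10 q of the peak in experiment 2 was 3.71 and 4.19, so at a limit of 5 the a4 gene was no longer called in all 4 lists. The widely expressed Atp6v0a1 had 28413 covered bases with dDAVP against 26090 with vehicle in experiment 1, and 10124 against 14431 in experiment 2. The other widely expressed gene, Atp6v0a2, had 2390 and 2262, then 966 and 1447, all in 1 peak per list at a gene end. An end of Tctn2 lay within 1 kb of that peak in all 4 lists.

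For the B subunit, which binds nucleotide in the V1 part, both the kidney isoform and the general one were called. Atp6v1b1 (chromosome 6, 83743017 to 83758855) had 7719 covered bases with dDAVP against 7572 with vehicle in experiment 1, and 3452 against 3565 in experiment 2. Its start lay inside a peak in all 4 lists, from -1353 to 4899 bases around the start in dDAVP replicate 1, from -949 to 5237 in vehicle replicate 1, from -514 to 2599 in dDAVP replicate 2 and from -494 to 2737 in vehicle replicate 2. These peaks had folds of 7.19, 7.30, 4.85 and 6.15, at percentiles 91.1, 90.3, 69.6 and 80.8. No end of another coding gene lay within 1 kb of them. A second, weaker peak inside the gene was called in all 4 lists, with folds of 3.67, 5.28, 3.61 and 3.91. The general gene Atp6v1b2 (chromosome 8, 69088736 to 69113718) had 1 peak per list, of 1567, 1249, 772 and 686 bp, at its lower-numbered end, where an end of Slc18a1 lies within 1 kb. Its folds of 6.91, 9.09, 6.47 and 8.87 stood at percentiles 89.8, 96.5, 88.0 and 94.0. The B1 peak was thus the wider and the B2 peak the higher in rank in 3 of 4 lists.

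**Figure D3:**
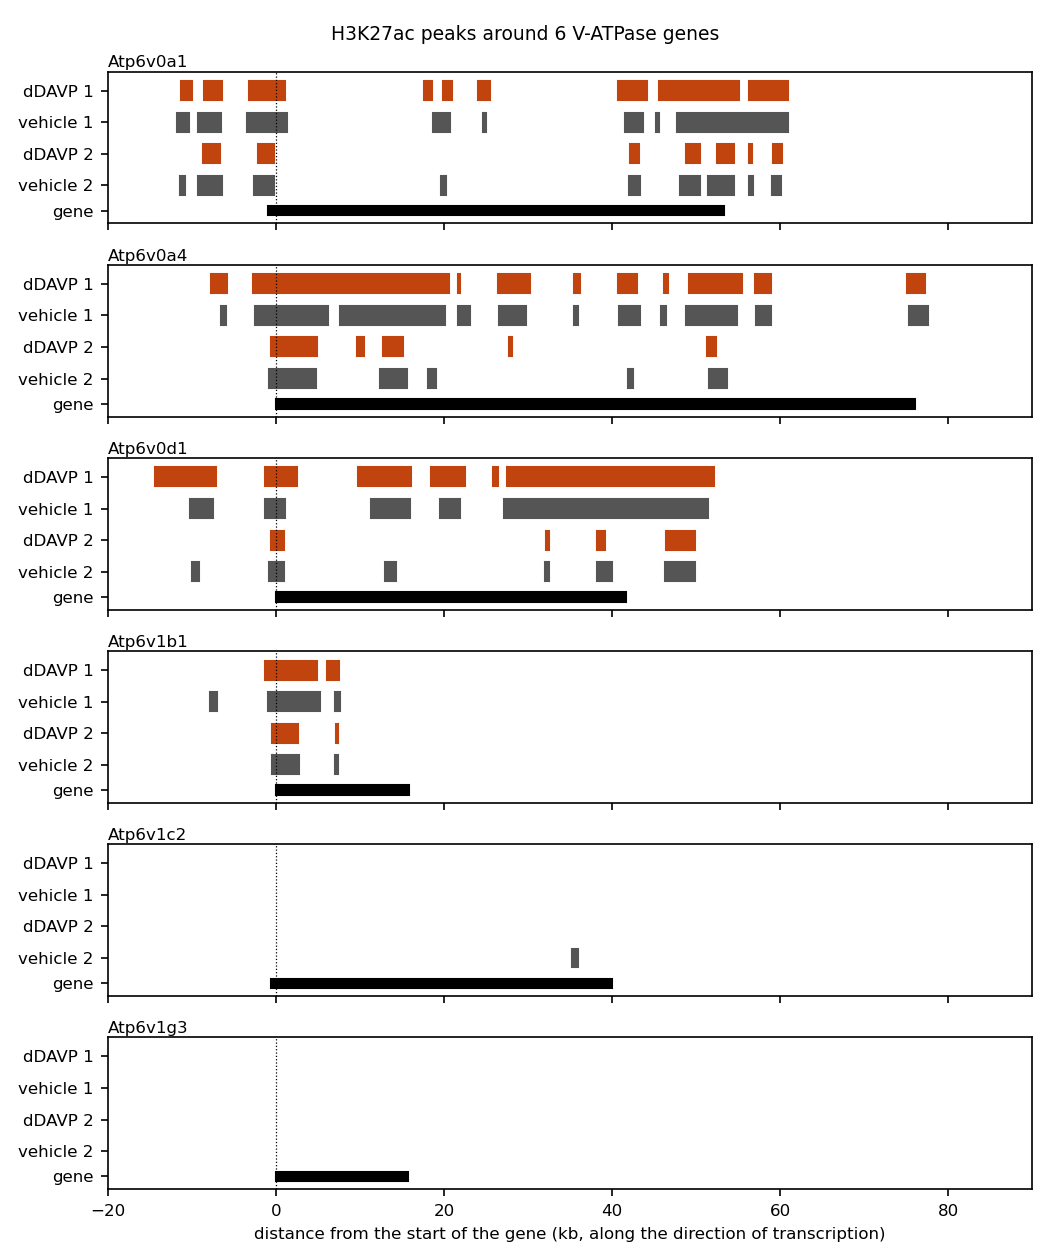
H3K27ac peaks around 6 V-ATPase genes by distance from the start of the gene (horizontal, kb, along the direction of transcription), with 1 row per peak list (red, dDAVP; grey, vehicle; 1 and 2 are the experiments) and the gene span in black. Atp6v1b1 holds a peak over its start and a narrower one inside the gene in all 4 lists, Atp6v0a4 holds peaks along much of its length in experiment 1, Atp6v1c2 holds 1 peak in 1 list and Atp6v1g3 none.

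The d, C and G subunits, which form the stalks that join the 2 parts of the pump, gave the other pattern: the general gene was called and the intercalated cell isoform was not. Atp6v0d1 (d1) had 41737 covered bases with dDAVP against 36237 with vehicle in experiment 1, and 6316 against 9750 in experiment 2. Its window also holds Hsd11b2, a principal cell gene, and Agrp, whose start lies 631 bp from that of Atp6v0d1. Atp6v0d2 (chromosome 4, 19876838 to 19922566) had 0 covered bases in all 4 lists. Atp6v1c1 (C1) had 9591 and 6183, then 1415 and 2156 bases. Atp6v1c2 (chromosome 12, 17284721 to 17325386) had a single peak of 714 bp, in vehicle replicate 2, with a fold of 2.57, about 35 kb inside the gene (35163 bases from its start). Atp6v1g1 (G1) had 6434 and 6016, then 1300 and 2535 bases, while Atp6v1g3 (chromosome 1, 138273738 to 138289462) had 0 in all 4 lists. A window without a peak holds no region past the authors' q-value limit, which is not the same as no acetylation.

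The other 10 widely expressed genes ranged from the top of the lists to near the middle. Over all 16, the highest peak at a gene end stood at median percentiles of 87.4, 87.2, 84.3 and 79.5 (dDAVP then vehicle, experiment 1 before experiment 2). The same medians over the 9888 genes called in all 4 lists were 87.5, 88.1, 73.4 and 82.3. The 16 thus stood near other called genes in experiment 1, above them in dDAVP replicate 2 and a little below in vehicle replicate 2. Atp6v0c, the gene of the proton-carrying c subunit, had folds of 10.7, 9.42, 14.9 and 14.4 at percentiles from 97.1 to 100.0, the highest of the 16 in both lists of experiment 2. Atp6v1d (D, the rotor shaft) ranged from 94.7 to 99.7 and was the highest of the 16 in both lists of experiment 1. Atp6v1a (A, the catalytic subunit) ranged from 96.7 to 98.2. These starts lie close to those of other genes, Eif2s1 at 434 bp from Atp6v1d and Naa50 at 532 bp from Atp6v1a. Atp6v0b, Atp6v1h (H) and Atp6ap2 reached the lowest ranks of the 16, down to percentiles 54.1, 54.1 and 53.5. Atp6v1e1 (E1) and Atp6v1f (F) each had 1 peak per list at the start. Of the 3 isoforms of other tissues, Atp6v1g2 ranked from 91.6 to 97.5, and its start peak came within 1 kb of Nfkbil1.

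**Figure D4:**
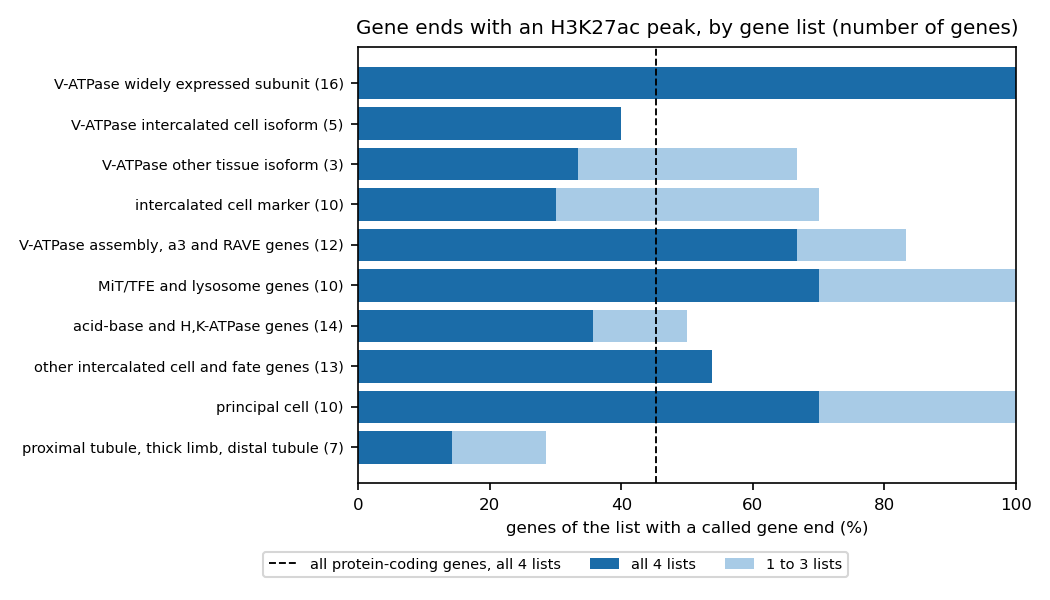
Share of genes in each list with an H3K27ac peak within 1 kb of either gene end, in percent (horizontal), in all 4 peak lists (dark) or in 1 to 3 lists (light), with the number of genes in brackets. The dashed line is the share of all protein-coding genes in all 4 lists (45.2%). The bar of the widely expressed V-ATPase genes reaches 100% (16 of 16), and those of the intercalated cell isoforms (2 of 5) and markers (3 of 10) end below the line.

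Of the 10 intercalated cell markers, 5 were covered in all 4 lists, 4 in the lists of experiment 1 alone and Foxi1 in none. The median marker had 6.89% of its window covered with dDAVP against 7.34% with vehicle in experiment 1, where the median over all protein-coding genes was 4.29% and 4.57%, and 0.685% against 0.919% in experiment 2, where it was 1.33% and 2.64%. Foxi1 (chromosome 11, 34204341 to 34208089), the transcription factor that specifies intercalated cells and activates pump genes, had 0 covered bases in all 4 lists. Slc4a1 (chromosome 11, 102348820 to 102365281), the anion exchanger AE1 of acid-secreting type A cells, had 2328 covered bases with dDAVP against 2516 with vehicle in experiment 1, and 0 in both lists of experiment 2, none of them within 1 kb of a gene end. Slc26a4 (chromosome 12, 31519814 to 31560055), the exchanger pendrin of base-secreting type B cells, had 1646 and 1458 bases in experiment 1 and 0 in experiment 2, with peaks inside the gene and none at its start. Dmrt2 (chromosome 19, 25672394 to 25679013), a transcription factor of type A cells, had a peak over its start in experiment 1 alone, 1528 bp wide with a fold of 4.89 with dDAVP and 1099 bp with 6.33 with vehicle. Insrr (chromosome 3, 87796908 to 87816101), an alkali-sensing receptor, had 593 and 298 bases in experiment 1 and 0 in experiment 2. Peaks found in both lists of experiment 1 alone were common here: of 95 merged regions in the windows of the 34 genes, 23 (24.2%) had that pattern, against 16.0% of all 45705 regions.

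The other 5 markers, Rhcg, Rhbg, Car2, Slc4a9 and Hepacam2, were covered in all 4 lists. Rhcg (chromosome 7, 79593363 to 79617657), an ammonia transporter, had 11427 covered bases with dDAVP against 11177 with vehicle in experiment 1, and 1730 against 2774 in experiment 2. Its start-side peak had folds of 4.15, 4.25, 3.02 and 2.87, and in experiment 2 they stood at percentiles 18.3 and 29.7 with a -log10 q of 1.99 and 2.22, so at a limit of 5 no marker start was called in all 4 lists. A stronger peak upstream, 8800, 9665, 6554 and 6861 bp wide, had folds of 6.80, 7.88, 5.04 and 4.92 in the same order, and reached from -17505 to -8706 bases before the start in dDAVP replicate 1. Rhbg (chromosome 3, 88242874 to 88254739), a second ammonia transporter, had 5424 and 5178, then 1404 and 1424 bases. Its gene end was called in experiment 1 alone, and a peak outside the gene, at 88261706 to 88263109 in dDAVP replicate 2, was called in all 4 lists with folds of 5.63, 5.14, 3.10 and 3.78. Car2 (chromosome 3, 14886269 to 14900770), the cytosolic carbonic anhydrase, had 14982 and 19769, then 1407 and 6393 bases, with a peak at its lower-numbered end in all 4 lists.

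The coverage of Slc4a9 and Hepacam2 came in part from peaks at the ends of other genes. Slc4a9, the exchanger AE4 of type B cells, had 9209 covered bases with dDAVP against 13056 with vehicle in experiment 1, and 3655 against 7044 in experiment 2, and its gene end was called in 3 lists, all but dDAVP replicate 2. Its highest peak in each list lay within 1 kb of an end of Ankhd1. Hepacam2 (chromosome 6, 3457089 to 3498322), a membrane protein enriched in intercalated cells, had 1266 and 1447, then 839 and 1125 bases. Its called end lay within 1 kb of an end of Vps50, and its start in the table was called in no list.

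In the lists as deposited, 14 of the 24 covered genes had more covered bases with dDAVP in experiment 1 and fewer in experiment 2. Of the 34 genes, 24 were covered in all 4 lists. In experiment 1, 16 of them had more covered bases with dDAVP than with vehicle, against 46.6% of all covered genes. In experiment 2, 3 did, against 4.78%, and these were Atp6v1b2, Atp6v1e1 and Atp6v1d. Coverage was higher in experiment 1 and lower in experiment 2 for 14 genes (43.7% of all covered genes), lower in both for 7 (51.4%), higher in both for 2 (2.84%) and lower then higher for Atp6v1d (1.93%). The median ratio of dDAVP to vehicle over the 24 genes was 1.046 in experiment 1 and 0.662 in experiment 2, beside 0.987 and 0.714 over all covered genes. Each list was then shortened to the 20124 peaks of the shortest by q-value. Of 24 genes, 12 then had more with dDAVP in experiment 1 (48.0% of all covered genes) and 5 in experiment 2 (7.91%). With lists of equal covered bases, 7 of 15 had more with dDAVP in experiment 1 (51.2%), 8 in experiment 2 (23.2%) and 6 in both (12.5%). Neither shortening gave more with dDAVP in experiment 1 for most genes, while a stricter q-value limit did. At a -log10 q of at least 5, 13 of 23 had more with dDAVP in experiment 1 (44.9%) and 4 in experiment 2 (6.56%). No gene could pass a test, since 2 lists against 2 give an exact two-sided permutation p no lower than 0.333, and 0.5 within experiments.

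**Figure D5:**
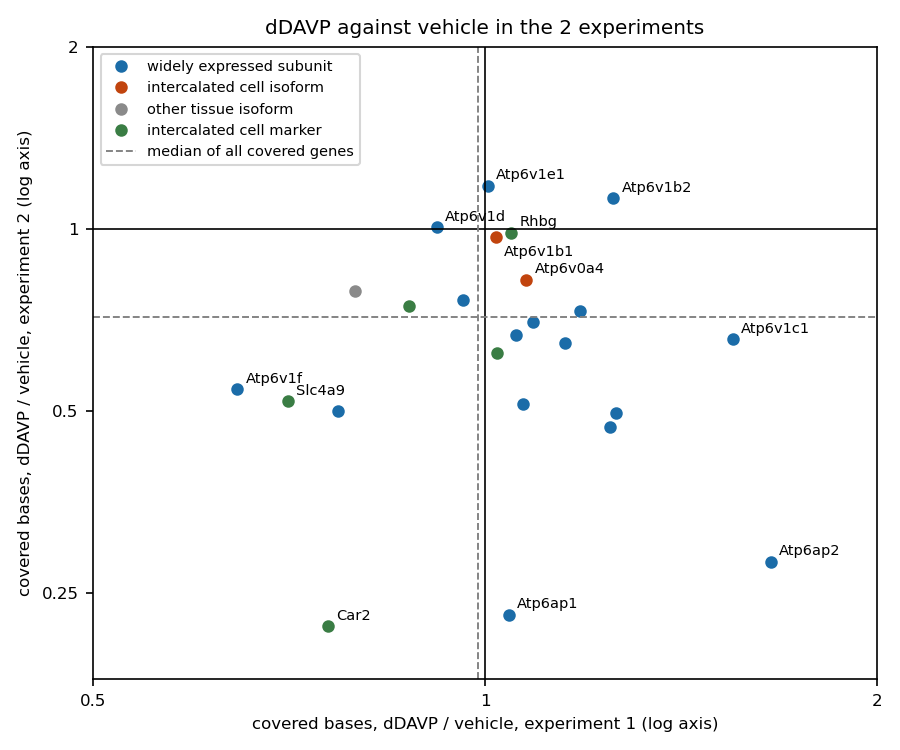
Ratio of covered bases, dDAVP over vehicle, in experiment 1 (horizontal) and experiment 2 (vertical), both on log axes, for the 24 genes covered in all 4 lists, coloured by class. Solid lines mark equal coverage and dashed lines the median of all covered genes (0.987 and 0.714). Most points lie below equal coverage in experiment 2, and Atp6v1b2 and Atp6v1e1 lie above it in both.

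Atp6v1f, the gene of subunit F of the rotor, was the 1 gene whose values did not overlap between treatments, with 1416 and 827 covered bases with dDAVP and 2195 and 1522 with vehicle (5.77% of all covered genes did not overlap). The means were 1121.5 ± 416 (SD, n = 2) and 1858.5 ± 476, and the exact permutation p of 0.333 is the smallest this design can give. Its ratios of 0.645 and 0.543 made it the 1 gene that differed over 1.5 times in the same direction in both experiments, where 3.81% of covered genes were that much lower in both. None of the 24 was over 1.5 times higher in both (0.0876% of covered genes), and so none at least 2 times higher (0.0239%). The fold of its peak did not follow: it was 8.34 with dDAVP against 6.73 with vehicle in experiment 1, and 6.32 against 6.38 in experiment 2. In each experiment the start peak was narrower with dDAVP.

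Atp6v1b2 and Atp6v1e1 were higher with dDAVP in both experiments, but their fold went the other way. For Atp6v1b2 the ratios were 1.255 and 1.125, the latter at percentile 98.7 of all covered genes, and the fold was lower with dDAVP in both experiments (6.91 against 9.09, and 6.47 against 8.87). Atp6v1e1 had 1755 covered bases with dDAVP against 1747 with vehicle in experiment 1, and 1460 against 1238 in experiment 2, with folds of 6.72 and 7.39, then 4.95 and 7.83. The exact permutation p was 0.667 for both genes.

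The called isoform genes and Rhbg were among the members with ratios nearer to 1 than the median gene in experiment 2, as were Atp6v1d, Atp6v1b2, Atp6v1e1, Atp6v1g2, Atp6v0e, Hepacam2 and Atp6v1a. Atp6v1b1 had ratios of 1.019 and 0.968, the latter at percentile 93.0 of all covered genes, Rhbg 1.048 and 0.986, and Atp6v0a4 1.076 and 0.824. The mean difference, dDAVP minus vehicle, was 17.0 ± 184 bases (SD, n = 2 experiments) for Atp6v1b1, with means of 5585.5 and 5568.5, and 437.5 ± 3707 for Atp6v0a4, with means of 26699.5 and 26262 (exact permutation p = 1.0 for both). Such values do not show that the treatments act alike.

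Lower coverage in both experiments was found for Car2, Slc4a9, Hepacam2, Atp6v0c, Atp6v0e, Atp6v1g2 and Atp6v1f. Car2 had ratios of 0.758 and 0.220, at percentiles 11.4 and 2.63, and a mean difference of -4886.5 ± 141 bases (SD, n = 2 experiments; exact permutation p = 0.667). In experiment 1 a single peak of 14660 bp covered the gene with vehicle, where with dDAVP 3 peaks did, and the fold of the peak at the lower-numbered end was 5.82 with dDAVP and 4.64 with vehicle. Slc4a9 had ratios of 0.705 and 0.519. Its window held the 1 merged region that was vehicle-only, called with vehicle in both experiments and with dDAVP in neither, 970 bp wide and 8372 bp from the gene, with folds of 2.56 and 3.37, at percentiles 26.3 and 46.0. Windows with such a vehicle-only region made up 1 of 34 here and 3.31% of all genes, and a region called in both dDAVP lists alone lay in 0 of 34 windows and 0.0777% of all. These counts have no test.

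Beside Atp6v1f, the pump genes lower in both experiments were the widely expressed Atp6v0c and Atp6v0e and the other tissue isoform Atp6v1g2. Atp6v0c had 12247 covered bases with dDAVP against 15872 with vehicle in experiment 1, and 3160 against 6330 in experiment 2, in a window shared with Pdpk1, Amdhd2 and Tbc1d24. Atp6v0e, for the small membrane subunit e, had 8278 against 8611, then 1766 against 2315. Atp6v1g2 had 10079 against 12676, then 5380 against 6807, part of it at Ddx39b. For each of the 3 the values overlapped between treatments (exact permutation p = 0.667). With lists shortened to equal covered bases, the mean difference turned positive for Atp6v0e (496.5 bases), Car2 (2923.5) and Hepacam2 (535.5).

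Measured as the quotient of the ratios of the 2 experiments, the accessory protein genes differed most among the 24. Atp6ap2 had 2804 covered bases with dDAVP against 1691 with vehicle in experiment 1, and 317 against 1126 in experiment 2. Its ratios of 1.658 and 0.282 stood at percentiles 98.0 and 4.68 of all covered genes. Atp6ap1 had 5146 against 4932, then 606 against 2634, with ratios of 1.043 and 0.230. The C1 gene Atp6v1c1 was likewise higher in experiment 1, with a ratio of 1.551 at percentile 97.0, and lower in experiment 2, at 0.656. The remaining genes covered in all 4 lists that were higher and then lower were Atp6v0a1, Atp6v0a2, Atp6v0b, Atp6v0d1, Atp6v1a, Atp6v1g1, Atp6v1h and Rhcg beside those described, with ratios between 1.022 and 1.261 in experiment 1 and between 0.470 and 0.731 in experiment 2. The exact permutation p was 1.0 for each.

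Among 49 related genes of the same pathways, set beside the members for context, 27 had a called gene end in every list and 15 in none, against 45.2% and 44.9% of all genes. Of 12 genes for assembly factors, the a3 subunit and the RAVE complex, 8 were called in all 4 lists, and of 10 MiT/TFE and lysosome genes 7 were. Of 14 acid-base and H,K-ATPase genes 5 were called, and of 13 other intercalated cell and cell fate genes 7. Tcirg1, which encodes a3, had 27136 covered bases with dDAVP against 22202 with vehicle in experiment 1, and 4710 against 6115 in experiment 2, and its start was called in all 4 lists. Starts were called in no list for 8 of 36 (45.7% of all genes): Slc4a7, Car4, Atp4a, Kit, P2ry14, Oxgr1, Avpr1a and Adgrf5. A vehicle-only region lay inside Slc4a4 (the bicarbonate cotransporter NBCe1) at chromosome 5, 88928389 to 88931122. Of the 36 covered in all 4 lists, 26 were lower with dDAVP in both experiments (51.4% of all covered genes), 9 higher then lower (43.7%) and 1 higher in both (2.84%).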

How the data were processed

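H3K27ac ChIP-seq was done on mpkCCD cells in 2 experiments with dDAVP and vehicle. Per the file headers, the authors called broad peaks with MACS 2.1.1.20160309, separately for each immunoprecipitated library with its own matched input as control, with q-value limits of 0.01 (strong) and 0.1 (broad), 50 bp tags and 1 tag kept per position. The submitters' processing notes name BWA, SAMtools and the mm10 build. The pileup column is the authors' signal, the mean tag coverage of a peak, and was not used. The fold column is the deposited ratio of signal to local background. The names of 2 columns were lost, and by values and order they hold the authors' -log10 p-value and -log10 q-value. Depth is the number of tags kept, per the file headers (27923780 to 32705755 immunoprecipitated, 30753752 to 38291361 input); no read counts were used.

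Peaks on the 19 autosomes, X and Y were kept, and 5 to 22 peaks per list on other scaffolds left out. Coverage was summed over the gene span plus 10 kb each side. A sum over called regions moves with how much was called, so the main counts stand beside the same share over all protein-coding genes. The planned start-site window needs a start in the RefSeq promoter table, which 23 genes have; Atp6v0a2, Atp6v1b2, Atp6v1c1, Atp6v1g1, Atp6v1h, Atp6v0d2, Slc4a1, Slc4a9, Car2, Rhbg and Insrr do not, and all 34 were therefore also described by gene ends. Exons were not used here, and sequences are RefSeq's. Regions merge overlapping or touching peaks of the 4 lists, with an overlap of at least 1 bp. Per gene, an exact two-sided permutation test over the 4 lists was run, and no set test.

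Titles give the experiment number that each dDAVP list shares with a vehicle list, and on that ground the number is treated as pairing them. Deviations of same-numbered lists from their group means correlated at r = 0.361 over 14698 genes. Both lists of experiment 1 were longer than both of experiment 2, so this r does not tell pairing from list length. The members and lists were chosen with earlier results of these data known. Named genes are all 34 members by class, with isoforms, their paralogues and markers in full, and related genes that are Tcirg1, hold a treatment-only region or have a start called in no list. The result of 1 related gene is not reported here. Alternatives were a -log10 q of at least 5, lists of equal length or equal covered bases, other windows, a 50% overlap, each list left out and the experiment as a block. Restriction to starts and gene ends with no other coding gene end within 2000 bp was added after seeing the data. The interval code was tested on simulated data. Python 3.11.15, numpy 2.4.6, pandas 2.3.3, scipy 1.17.1 and matplotlib 3.10.9 were used.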

Additional observations from a re-analysis of the deposited data

How the results depend on the processing

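Of 24 genes covered in all 4 lists, the number lower with dDAVP in both experiments was 7 (51.4% of all covered genes), and 17 of 30 with 50 kb flanks (54.5%). The number higher in both was 2 (2.84%), then 6 of 15 with lists of equal covered bases (12.5%) and 1 of 20 without flanks (5.53%). In experiment 1 the number higher with dDAVP was 16 (46.6%). It was 13 of 23 at a -log10 q of at least 5 (44.9%) and 7 of 15 with equal covered bases (51.2%). In experiment 2 it was 3 (4.78%), then 5 of 24 with equal length (7.91%) and 8 of 15 with equal covered bases (23.2%). The dDAVP mean was lower for 15 genes (77.4%), 12 of 20 without flanks (71.3%) and 25 of 30 with 50 kb flanks (83.8%). It was lower for 7 of 15 with equal covered bases. When a list was left out it was lower for 3 (without dDAVP replicate 2) to 24 (without dDAVP replicate 1 or vehicle replicate 2). No share over all genes was computed for the counts with equal covered bases or a list left out, so they are no result about the members. Leaving out a list leaves 1 pair, so counts over both experiments have no such value, and the single list of an arm gives a value with no test. Called starts fell to 1 of the isoforms and 0 of the markers at a -log10 q of at least 5 or equal covered bases. They fell to 0 of the markers with equal length or 500 bp windows. Over all genes with a start, 36.9% were called in all 4 lists at that q, 28.3% with equal covered bases and 45.3% with equal length. The share with 500 bp windows was not computed. Where no other coding gene end lay within 2000 bp, called starts were 8 of 16 members, 6 of 6 widely expressed genes and 1 of 3 isoforms. Called gene ends were 9 of 12 widely expressed genes and 1 of 4 isoforms. No share over all genes was computed for these sites. Gene ends of isoforms fell to 1 at a -log10 q of at least 5 (36.2% of all genes were called). With equal covered bases they were 1, those of markers 0 and those of widely expressed genes 10 (28.0% of all genes). Atp6v1b1 was called in all 4 lists under each of these peak cuts and Atp6v0a4 was not at that q or with equal covered bases. Vehicle-only windows fell from 1 to 0 with that q, equal length and equal covered bases, and ranged up to 9 with a list left out. dDAVP-only windows went from 0 to 1 with equal covered bases and ranged up to 7 with a list left out. Fewer lists have to agree when a list is left out, and no share over all genes stands beside these ranges.

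Mean differences changed sign for Atp6v0e (154 bases at that q, 496.5 with equal covered bases), Car2 (2923.5) and Hepacam2 (535.5), both with equal covered bases, and Atp6v1g2 (0.5 without flanks). With a list left out they changed sign for Atp6v0c (-8168.5 to 1373.5), Atp6v0e (-3697 to 2815), Atp6v1b2 (-195.5 to 599.5), Atp6v1e1 (-139.5 to 369.5), Atp6v1g2 (-4946.5 to 922.5) and Car2 (-11674 to 1901). Those of Atp6v1f (-1073.5 to -400.5 with a list left out) and Slc4a9 (-6624 to -612) had the same sign under every alternative run. With the experiment as a replicate block, the difference for Atp6v1f was -737 at p = 0.5 (exact permutation), the smallest possible. The block enters only the p-value, so it could change no call. The causes were not tested.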

Other observations

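One related gene, named after its values were seen, went against the direction of the lists. Car15, a membrane-bound carbonic anhydrase of the mouse kidney, had 14424 covered bases in its window with dDAVP against 4201 with vehicle in experiment 1, and 5287 against 2025 in experiment 2. The values did not overlap between treatments, with ratios of 3.43 and 2.61, and it was 1 of 3 genes of 12558 (0.0239%) at least 2 times higher with dDAVP in both experiments, beside Ksr2 and Nlrc4. The peak called in all 4 lists lay outside the gene, between 2509 and 3694 bp from it, with folds of 6.03 and 3.82 in experiment 1 and 3.89 and 3.31 in experiment 2 (dDAVP first). With lists of equal length the ratios were 1.60 and 2.61, and with equal covered bases the vehicle lists held 0 bases. The window also holds Dgcr2, and the exact permutation p of 0.333 is the smallest possible.

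Values of other intercalated cell and cell fate genes follow, with no test passed (exact permutation p of 0.667 for each). The 8 of the 13 that were covered in every list each had fewer covered bases with dDAVP in both experiments (51.4% of all covered genes did), with median ratios of 0.895 and 0.475 beside 0.987 and 0.714 over all covered genes. Tfcp2l1, a transcription factor of collecting duct cell fate, had 36969 bases with dDAVP against 44777 with vehicle in experiment 1, and 7470 against 15669 in experiment 2. Notch1, a receptor that favours the principal cell fate, had 39561 and 44225, then 7867 and 18833.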
